A study of Mus musculus with 2 samples.

Results

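The genes described here are 10 detoxifying and redox enzymes, Gsta1, Gsta4, Gstm1, Gstm3, Gstp1, Gstt1, Gsto1, Mgst1, Nqo1 and Gpx2, among the 32285 genes measured in single cells of mouse small intestine. They were found by their symbols, and each of the 10 matched 1 gene. The list was selected on earlier results from these same cells, in which the level of Gsta1 in goblet cells differed between the genotypes, so levels and ratios below are a description with no test. The study deleted the transcription factor FoxO1 in the Neurog3 lineage to ask which intestinal cells change identity. Both libraries came from mice aged 4 to 6 weeks, with the whole small intestine of 4 to 5 mice pooled for each, and Tomato-positive epithelial cells were sorted before 10x Genomics single-cell RNA-Seq. The WT mice carried Neurog3Cre; Rosa26tdtomato, and the NFKO mice carried Neurog3Cre-FoxO1 f/f; Rosa26tdtomato, so the Cre driver and the reporter were present in both. Neurog3Cre marks every descendant of a cell that once expressed Neurog3, and it therefore labels goblet, Paneth and other cells beside enteroendocrine cells. There was 1 library per genotype, and the genotypes cannot be told apart from any other difference between these pools.

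Glutathione transferases join the small peptide glutathione to reactive, fat-soluble compounds and so make them easier to export. The alpha, mu, pi, theta and omega classes are soluble enzymes, and Mgst1 is a membrane-bound relative. Nqo1 reduces quinones, and Gpx2, the gastrointestinal glutathione peroxidase, reduces peroxides with glutathione. Many of these genes are known targets of the transcription factor NRF2, and in the intestine the enzymes guard the epithelium against dietary electrophiles and oxidants.

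After filtering, 3003 WT cells with 78525412 UMIs (unique molecular identifiers, each 1 counted mRNA molecule) and 5292 NFKO cells with 111536916 UMIs remained, with median depths of 16886 and 17043.5 UMIs per cell. Cells formed 23 clusters, which were assigned to 7 classes by marker genes and to 3 clusters left unnamed, and the 10 genes were kept out of the clustering. Levels are in CPM (counts per 1000000 UMIs), computed after summing the UMIs over the cells of a class or cluster in each library. Each is followed by its exact Poisson 95% interval, and ratios of NFKO over WT carry an exact conditional interval. These intervals cover counting error only, not differences between mice. A gene passed the filter on low values in a class with at least 50 CPM in 1 of the libraries and 100 UMIs in all, and a member was called when its ratio was past 2-fold. The level of Foxo1 itself over all cells was 11.6 CPM in WT and 12.4 CPM in the library labelled NFKO (ratio 1.07, 0.983 to 1.16). A 3′ tag count can come from an allele with an internal deletion, so this level does not check the label. The pools also differed in sex. By Y-linked genes and Xist, 2423 WT cells were typed male and 6 female, whereas 359 cells of the library labelled NFKO were typed male and 4359 female.

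The 10 genes divided the epithelium among them (plot of levels by class). Gsta1 and Gsta4 were highest in goblet-like and enterocyte-like cells. Gstt1 was highest in enteroendocrine-like cells. Gsto1 was high in enteroendocrine-like, enterocyte-like and stem-like cells. Mgst1 was high in enterocyte-like and stem-like cells, and Gpx2 in cycling, stem-like and enterocyte-like cells. Gstm1 and Gstp1 were spread over goblet-like, stem-like, cycling and enterocyte-like cells, Gstm3 was highest in enterocyte-like cells, and Nqo1 was found in enteroendocrine-like, enterocyte-like and stem-like cells. Levels are compared across cell types within a gene and not between genes, since transcript length and capture differ.

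**Figure D1:**
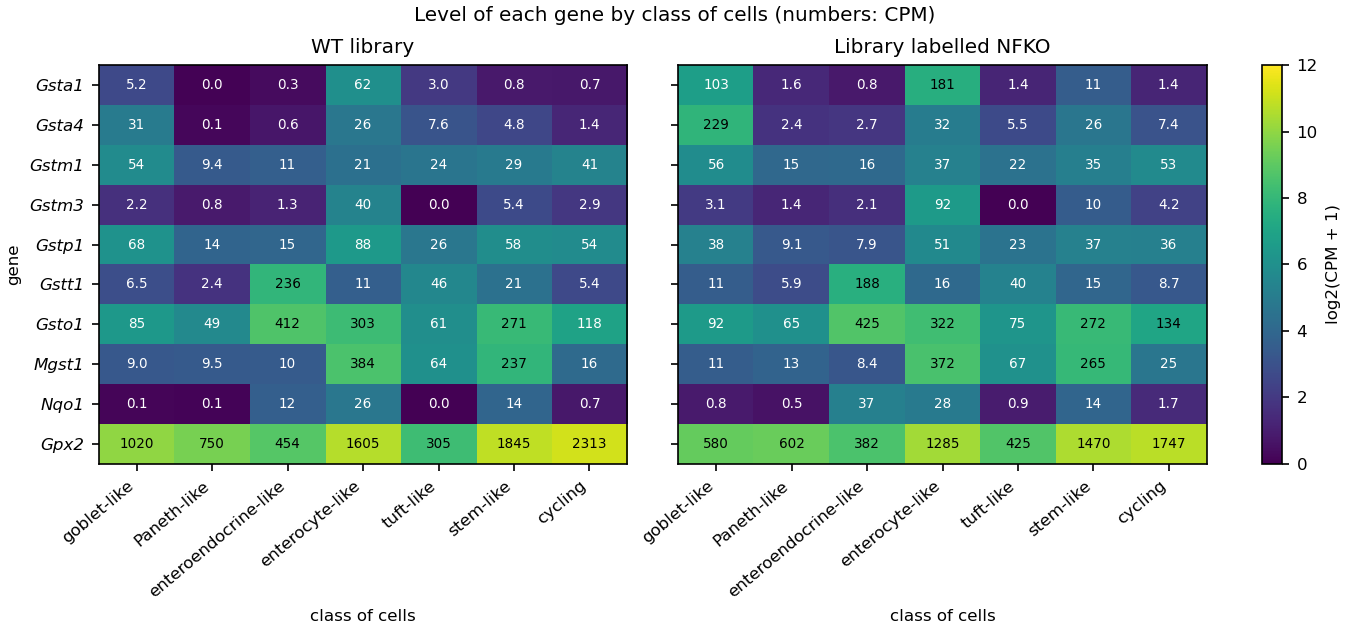
Level of each of the 10 genes (rows) in the 7 classes of cells (columns) in the WT library (left) and the library labelled NFKO (right). Colour shows log2(CPM + 1) and the printed numbers are CPM. Gsta4 stood at 229 CPM in goblet-like cells of the library labelled NFKO against 30.6 CPM in WT, and Gpx2 was lower in NFKO in each class other than tuft-like cells.

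The goblet-like cells, 840 in WT and 1556 in NFKO, comprised 3 clusters that the libraries filled unequally. Cluster 0 was led by Ido1, Ly6m, Zg16 and Clca1, the last pair being products of mature goblet cells. It held 11.4% (9.36 to 13.8) of WT goblet-like cells and 51.5% (49.0 to 54.1) of NFKO ones, with exact binomial intervals. Cluster 1, led by Mptx1, Hsd11b2 and Agr2, held 19.3% and 47.0%. Cluster 2, led by Edn2, Areg and the heat shock gene Hspa1a, held 69.3% of WT goblet-like cells and 1.41% of NFKO ones. Of the 8 goblet markers, 5, 5 and 4 marked clusters 0, 1 and 2. The class values below therefore set cluster 2 in WT largely against clusters 0 and 1 in NFKO. A shift in cell states and a change within a state cannot be told apart from the class value, and values within clusters are given beside it. Cluster 0 was shallow, with medians of 4833.5 and 7285.5 UMIs, and gave 3.92% of the UMIs of the class in WT and 31.0% in NFKO. The libraries also differed within clusters. Summed goblet markers stood at 270895 CPM in WT and 430386 CPM in NFKO in cluster 0, and at 160640 and 138600 CPM in cluster 1. The part of these differences in the values within clusters was not tested.

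Gsta1, an alpha-class transferase, stood at 5.25 CPM (4.27 to 6.38) in WT goblet-like cells and at 103 CPM (99.6 to 107) in NFKO goblet-like cells. The ratio was 19.7 (16.1 to 24.3), from 100 and 3168 UMIs. Within cluster 0 it was 38.8 CPM in WT and 285 CPM in NFKO, a ratio of 7.33 (5.09 to 10.97). Within cluster 1 it was 5.62 CPM and 22.1 CPM, a ratio of 3.93 (2.61 to 6.19). In cluster 2 it was 3.35 CPM in WT and 2.40 CPM in NFKO, the latter from a single UMI, with a ratio of 0.718 (0.0178 to 4.2). Gsta1 was thus higher in NFKO in both clusters that held nearly all NFKO goblet-like cells, and by less than over the class as a whole. With cells thinned to 2000 UMIs, a UMI of Gsta1 was found in 0.954% of WT and 10.2% of NFKO goblet-like cells, and in 7.26% and 27.8% without thinning. Paneth-like cells, used here as the type that should lack the gene, had Gsta1 in 0.382% and 4.74% of unthinned cells and at 0.0484 CPM (0.00122 to 0.270) and 1.63 CPM (1.06 to 2.41). Median depths were 24262 and 21669 UMIs in goblet-like cells and 52027 and 39729 UMIs in Paneth-like cells. The Gsta1 levels of goblet-like cells were above that background in both libraries.

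Gsta4, the alpha-class enzyme that clears the lipid peroxidation product hydroxynonenal, was at 30.6 CPM (28.2 to 33.2) in WT and 229 CPM (223 to 234) in NFKO goblet-like cells. The ratio was 7.46 (6.86 to 8.13). Within cluster 0 the levels were 236 and 570 CPM, and within cluster 1 they were 31.4 and 76.1 CPM. The ratios there were 2.42 (2.08 to 2.83) in cluster 0 and 2.43 (2.03 to 2.92) in cluster 1, while cluster 2 gave 0.862 (0.343 to 1.80). The distance between clusters 0 and 1 was larger than that between the libraries, since WT cells of cluster 0 had a higher level of Gsta4 than NFKO cells of cluster 1. A UMI of Gsta4 was found in 4.65% of WT and 23.7% of NFKO goblet-like cells thinned to 2000 UMIs. In NFKO, 64.3% of thinned goblet-like cells with Gsta1 also had Gsta4, against 19.1% of those without Gsta1. Within NFKO cluster 0 these shares were 69.3% and 31.5%, and within NFKO cluster 1 they were 40.7% and 8.51%. In WT only 0.954% of goblet-like cells had Gsta1, too few for such a comparison. Gsta1 and Gsta4 were among the 10 leading genes of cluster 0 although neither was used to form it.

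**Figure D2:**
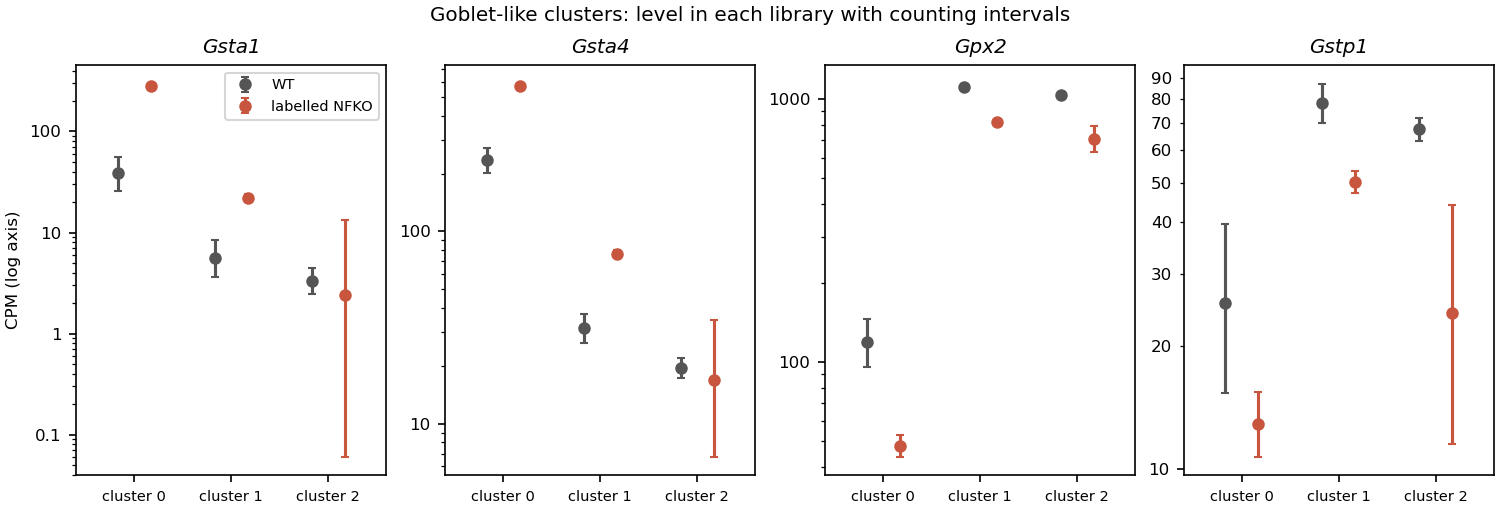
Level of Gsta1, Gsta4, Gpx2 and Gstp1 in the 3 goblet-like clusters (log axis, CPM) in WT (grey) and the library labelled NFKO (red), with exact Poisson 95% intervals. In clusters 0 and 1 the NFKO points lie above WT for Gsta1 and Gsta4 and below WT for Gpx2 and Gstp1. Cluster 2 held 22 NFKO cells, and its NFKO intervals are wide.

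Gpx2 had the opposite pattern. It was at 1020 CPM (1005 to 1034) in WT and 580 CPM (572 to 589) in NFKO goblet-like cells, a ratio of 0.569 (0.558 to 0.581). It was low in cluster 0, with 119 CPM in WT and 48.1 CPM in NFKO, and high in cluster 1, with 1111 and 822 CPM, and in cluster 2, with 1040 and 706 CPM. The ratio was below 1 in each of the 3 clusters, at 0.404 (0.321 to 0.513), 0.740 (0.716 to 0.764) and 0.679 (0.603 to 0.762). Cluster 0 was thus the goblet-like cluster with the highest Gsta1 and Gsta4 and the lowest Gpx2 in both libraries.

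Gstp1, the pi-class enzyme, was at 68.3 CPM (64.6 to 72.1) in WT and 38.3 CPM (36.1 to 40.6) in NFKO goblet-like cells. The ratio was 0.561 (0.518 to 0.607), and it was below 1 with its interval in all 3 goblet-like clusters, at 0.508, 0.642 and 0.355. Gstm1, of the mu class, differed little over the class, with 54.4 and 55.5 CPM and a ratio of 1.02 (0.944 to 1.10). This hid a split between clusters, since the ratio was 0.420 (0.267 to 0.687) in cluster 0 and 1.25 (1.10 to 1.44) in cluster 1. Gsto1, of the omega class, stood at 84.7 and 91.7 CPM, a ratio of 1.08 (1.02 to 1.15). The remaining 4 genes were low in goblet-like cells and did not pass the filter: Gstm3, Gstt1 and Mgst1 lay between 2.15 and 10.7 CPM in both libraries, and Nqo1 had 2 UMIs in WT and 25 in NFKO (ratio 7.76, 1.94 to 67.6).

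Of the 10 genes, 6 passed the filter in goblet-like cells, and 2 of them, Gsta1 and Gsta4, were at least 2-fold higher in NFKO while 0 were 2-fold lower. Over all 2384 genes that passed, 2.14% were at least 2-fold higher and 1.05% at least 2-fold lower. The list was selected knowing the Gsta1 difference in these cells, so nothing is read from its count. The median log2 ratio was 0.07 over the 6 genes and -0.05 over all genes.

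**Figure D3:**
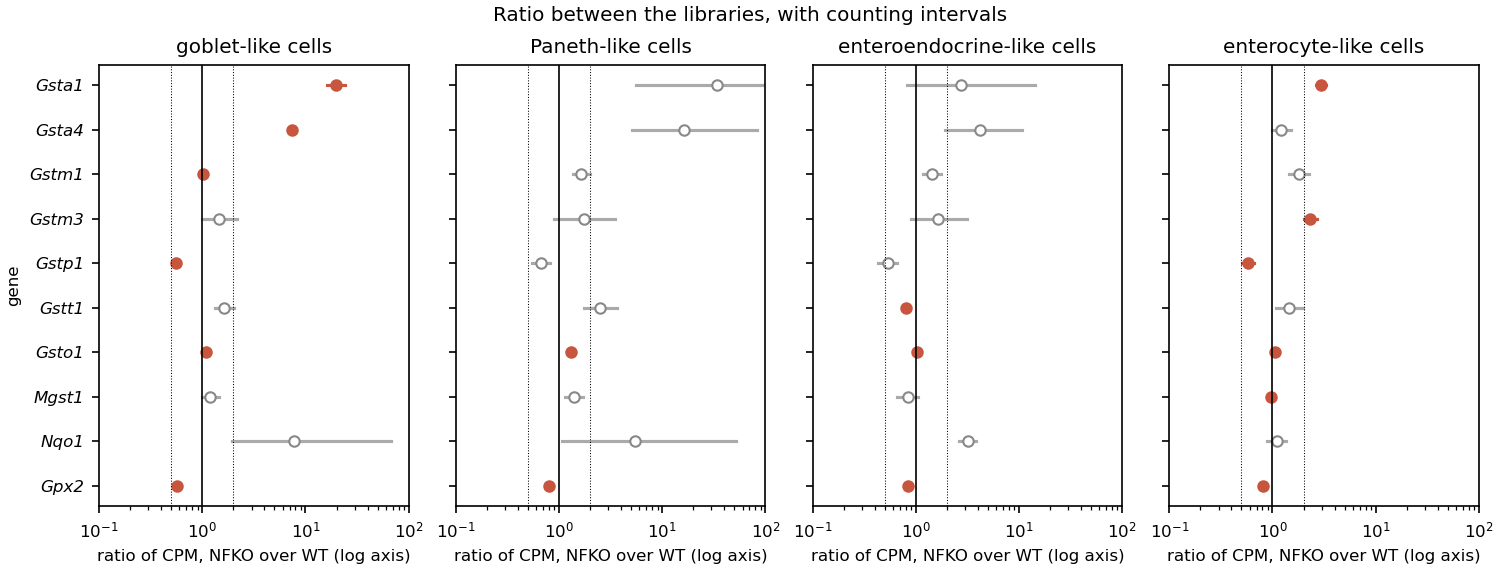
Ratio of CPM in NFKO over WT (log axis) for each gene in goblet-like, Paneth-like, enteroendocrine-like and enterocyte-like cells, with exact conditional 95% intervals for counting error drawn within 0.1 to 100. Filled red points passed the filter on low values and open grey points did not. Dotted lines mark a 2-fold difference. Gsta1 and Gsta4 lie far right in goblet-like cells, and Gstp1 and Gpx2 lie left of 1 in each panel.

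Enterocyte-like cells, 254 in WT and 353 in NFKO, comprised cluster 8, led by the apolipoprotein genes Apoa4 and Apoa1, and cluster 14, led by Apol10a and Car4 and with the ileal bile acid binding protein gene Fabp6 among its 10 leading genes. Cluster 8 held 48.4% (42.1 to 54.8) of the WT and 68.6% (63.4 to 73.4) of the NFKO cells of the class. Since its cells were shallow, with medians of 3964 and 5582.5 UMIs, it gave only 10.4% of the UMIs of the class in WT but 51.4% in NFKO. Class levels therefore weighed the clusters differently in each library. Summed enterocyte markers stood at 4700 CPM in WT and 30814 CPM in NFKO, and Apoa4 was 14.2 times higher in NFKO (13.2 to 15.3). Summed goblet markers in the same class stood at 25531 CPM in WT, above the enterocyte markers, and at 10552 CPM in NFKO. The part of these differences in the values below was not tested.

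Gsta1 stood at 61.6 CPM (55.7 to 68.0) in WT and 181 CPM (171 to 191) in NFKO enterocyte-like cells, a ratio of 2.94 (2.62 to 3.30). It was higher in NFKO within both clusters, by 1.76 (1.36 to 2.30) in cluster 8 and 3.28 (2.87 to 3.76) in cluster 14. Gsta4 was lower here, at 26.2 and 32.0 CPM with a ratio of 1.22 (0.994 to 1.5), and did not pass the filter. Within the clusters its ratio was 2.10 (1.06 to 4.71) in cluster 8, from 9 and 104 UMIs, and 1.29 (1.01 to 1.64) in cluster 14. Over whole classes in NFKO, Gsta4 was higher in goblet-like than in enterocyte-like cells and Gsta1 was lower in goblet-like cells. In WT, Gsta1 was lower in goblet-like cells and Gsta4 was at like levels in both classes. Goblet-like cluster 0 differed from its class. There Gsta1 in NFKO (285 CPM) and Gsta4 in WT (236 CPM) were above the enterocyte-like levels, while Gsta1 in WT (38.8 CPM) was below.

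Gstm3, of the mu class, was at 39.9 CPM (35.2 to 45.1) in WT and 92.4 CPM (85.4 to 99.7) in NFKO, a ratio of 2.31 (2.0 to 2.69). Within cluster 8 the levels were 130 and 131 CPM with a ratio of 1.01 (0.803 to 1.29), and within cluster 14 they were 29.5 and 51.4 CPM with a ratio of 1.74 (1.40 to 2.16). Neither cluster reached 2-fold, and cluster 8, with the higher level, supplied more of the NFKO UMIs. Mgst1 went the other way. It was at 384 and 372 CPM over the class, a ratio of 0.968 (0.916 to 1.02), but at 57.3 and 261 CPM in cluster 8, a ratio of 4.55 (3.29 to 6.48), and at 422 and 489 CPM in cluster 14, a ratio of 1.16 (1.09 to 1.23). Both clusters were higher in NFKO and the class was not. The WT level in cluster 8 rested on 38 UMIs.

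Gstp1 stood at 88.2 and 51.0 CPM in enterocyte-like cells, a ratio of 0.578 (0.505 to 0.661). The ratio was 0.633 (0.536 to 0.744) in cluster 14 and 1.23 (0.791 to 2.0) in cluster 8. Gpx2 was at 1605 and 1285 CPM, a ratio of 0.801 (0.779 to 0.824), and was lower in NFKO in both clusters. Gsto1 was at 303 and 322 CPM, with a ratio of 1.06 (0.998 to 1.13). Gstm1, Gstt1 and Nqo1 did not pass the filter, with ratios of 1.80 (1.45 to 2.24), 1.45 (1.07 to 1.98) and 1.10 (0.891 to 1.36). In all, 6 genes passed and 2 of them, Gsta1 and Gstm3, were at least 2-fold higher while 0 were 2-fold lower. Of the 2848 genes that passed in this class, 6.64% were at least 2-fold higher and 1.72% at least 2-fold lower. The median log2 ratio of the 6 genes was 0.02, and that of all genes was 0.03.

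Enteroendocrine-like cells, 901 in WT and 1898 in NFKO, comprised 9 clusters, and here the genes marked hormone types (plot of levels in the enteroendocrine-like clusters). Gstt1, of the theta class, was at 236 CPM (227 to 245) in WT and 188 CPM (183 to 193) in NFKO over the class. Cluster 5, led by Tac1, the tachykinin gene of enterochromaffin cells, held most of it, with 830 and 817 CPM, a ratio of 0.984 (0.933 to 1.04). Cluster 12, which had Cartpt and the serotonin synthesis gene Tph1 among its leading genes, followed with 277 and 210 CPM, a ratio of 0.760 (0.605 to 0.964). The Gip cluster 3 had 124 and 130 CPM. These 3 clusters kept the same order in both libraries with intervals that did not overlap. The class ratio of 0.797 (0.761 to 0.836) was thus lower than the ratio in the cluster where the gene was highest. Cluster 5 held 215 of the 901 WT and 324 of the 1898 NFKO cells of the class. The Gstt1 ratio was above 1 in 6 of the 9 clusters, with its interval in 1, and below 1 in 3, with its interval in 1. The part of cluster make-up in the class ratio was not tested. Gstt1 was among the 10 leading genes of cluster 5 although it was kept out of the clustering.

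Gsto1 was highest in the Sst and Iapp cluster 18, with 860 CPM (760 to 970) in WT and 972 CPM (926 to 1019) in NFKO, and in the Gip cluster 3, with 957 and 847 CPM. These clusters did not keep their order between the libraries. The Gcg cluster 7 followed with 540 and 565 CPM, and cluster 12 was lowest with 37.7 and 43.4 CPM. Over the class Gsto1 was at 412 and 425 CPM with a ratio of 1.03 (0.996 to 1.07). It was lower in NFKO in cluster 3, by a ratio of 0.885 (0.841 to 0.931), and higher in cluster 5, by 1.40 (1.25 to 1.57).

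Nqo1 was a gene of the Gip cluster among the hormone cells. Cluster 3 had 49.1 CPM (40.1 to 59.5) in WT and 133 CPM (125 to 142) in NFKO, a ratio of 2.72 (2.22 to 3.36), from 104 and 930 UMIs. Every other enteroendocrine-like cluster was at or below 16.9 CPM in both libraries. A UMI of Nqo1 was found in 8.70% of WT and 23.3% of NFKO cells of cluster 3 at 2000 UMIs per cell. Over the class the levels were 11.5 and 36.7 CPM and the ratio 3.18 (2.64 to 3.86), under the filter of 50 CPM, so Nqo1 is not in the count below. The unnamed cluster 15, of shallow cells with 7 of 10 enteroendocrine markers, had 58.2 CPM (39.5 to 82.6) in WT, from 31 UMIs, and 114 CPM (77.1 to 163) in NFKO, with intervals that overlapped those of cluster 3 in both libraries.

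**Figure D4:**
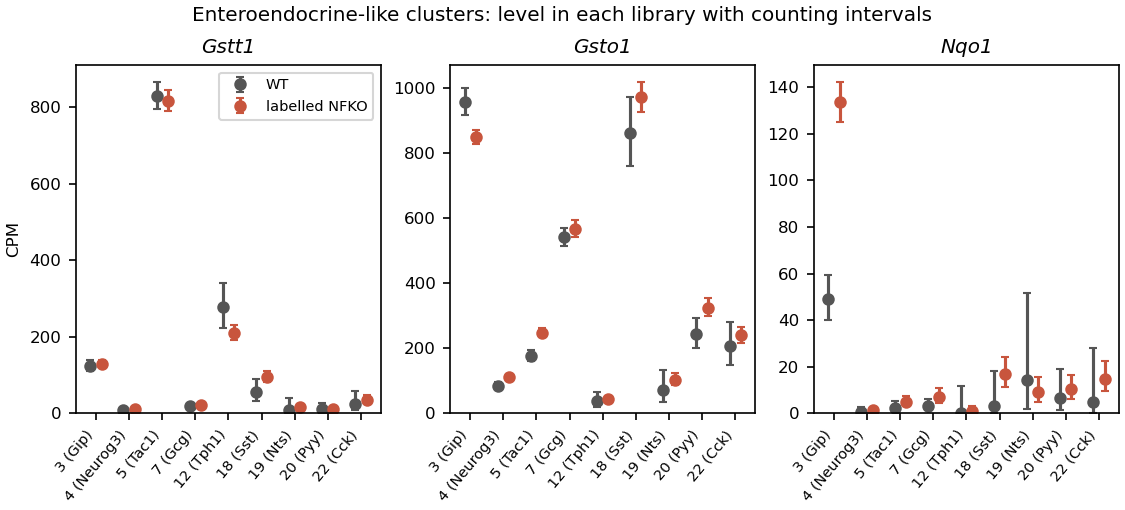
Level of Gstt1, Gsto1 and Nqo1 (CPM) in the 9 enteroendocrine-like clusters, each named by its number and 1 of its hormone or marker genes, in WT (grey) and the library labelled NFKO (red) with exact Poisson 95% intervals. Gstt1 peaks in cluster 5 and Gsto1 in clusters 3 and 18 in both libraries, and Nqo1 stands at 49.1 CPM in WT and 133 CPM in NFKO in cluster 3.

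Gpx2 was at 454 and 382 CPM in enteroendocrine-like cells, a ratio of 0.840 (0.812 to 0.869). Its ratio was below 1 in 7 of the 9 clusters, among them cluster 3 at 0.632 (0.577 to 0.693), and above 1 in clusters 5, at 1.10 (1.03 to 1.18), and 7, at 1.29 (1.17 to 1.43). It was highest in the Neurog3 cluster 4, with 917 and 889 CPM. Gstp1 did not pass the filter, with 14.8 and 7.90 CPM and a ratio of 0.534 (0.435 to 0.657). Gsta1 and Gsta4 were nearly absent, with 0.274 and 0.756 CPM for Gsta1 and 0.640 and 2.68 CPM for Gsta4. Gstm1, Gstm3 and Mgst1 lay between 1.28 and 16.3 CPM. Of the 10 genes, 3 passed the filter, and 0 were at least 2-fold higher or lower. Over the 3581 genes that passed, 0.866% were at least 2-fold higher and 0.726% at least 2-fold lower. The median log2 ratio was -0.25 over the 3 genes and 0.00 over all.

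In Paneth-like cells, 262 in WT and 253 in NFKO, few of these genes passed the filter. Summed Paneth markers took 514146 CPM in WT and 471056 CPM in NFKO, which lowers the CPM of every other gene in this class. Gpx2 was at 750 CPM (739 to 762) in WT and 602 CPM (589 to 614) in NFKO, a ratio of 0.802 (0.781 to 0.823), and Gsto1 was at 49.0 and 64.6 CPM, a ratio of 1.32 (1.21 to 1.44). The other 8 genes did not pass the filter and none exceeded 15.5 CPM. For Gsta1 and Gsta4 there were 1 and 3 UMIs in WT and 25 and 36 in NFKO, with ratios of 33.7 (5.52 to 1385) and 16.2 (5.12 to 82.2), at levels no higher than 2.35 CPM. Gsta1 and Gsta4 make up part of the goblet-like RNA of the same library, and the part of free RNA in these counts was not tested. Of the 2 genes that passed, 0 were at least 2-fold higher or lower. Over the 949 genes that passed, 2.11% were at least 2-fold higher and 1.16% at least 2-fold lower, and the median log2 ratio was 0.27.

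In stem-like cells, a single cluster led by Olfm4 with 305 WT and 208 NFKO cells and marked by 7 of 8 stem and 8 of 8 cycling markers, Mgst1 was at 237 and 265 CPM, a ratio of 1.12 (1.07 to 1.18), and Gsto1 was at 271 and 272 CPM. Gpx2 was at 1845 and 1470 CPM, and its highest class level was that of the cycling cells, with 2313 and 1747 CPM. Gstp1 was at 58.3 and 37.2 CPM in stem-like cells and 54.0 and 35.9 CPM in cycling cells. Gsta1 and Gsta4 were low in stem-like cells and higher in NFKO, with 0.766 and 10.7 CPM for Gsta1 and 4.79 and 25.5 CPM for Gsta4. In the 86 WT and 139 NFKO tuft-like cells, Gpx2 was at 305 and 425 CPM, a ratio of 1.39 (1.19 to 1.63), Mgst1 was at 63.8 and 66.8 CPM and Gsto1 at 60.8 and 74.9 CPM. No UMI of Gstm3 was found in tuft-like cells of either library, which allows up to 4.56 CPM in WT and 1.36 CPM in NFKO (3 counts per library).

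Across the 7 classes, Gstp1 was below 1 in each, with intervals below 1 in 6 and an interval of 0.498 to 1.63 in tuft-like cells. Gpx2 was below 1 in 6 of the 7 classes. Gsto1 was above 1 in all 7, with intervals above 1 in 3 of them and no ratio over 1.32. In male-typed cells, however, Gsto1 was at 0.918 (0.785 to 1.07) in goblet-like and 0.909 (0.840 to 0.983) in enteroendocrine-like cells, and its ratio also turned below 1 under other alternatives in goblet-like, stem-like and cycling cells. These genes and cells share 2 libraries, and the classes are not independent measurements of the genotype.

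Because the pools differed in sex, the ratios were also computed in cells typed male in both libraries, 701 WT and 109 NFKO in the goblet-like class. There Gsta1 had a ratio of 21.7 (16.8 to 28.3), Gsta4 8.0 (7.08 to 9.05), Gpx2 0.575 (0.545 to 0.606) and Gstp1 0.593 (0.479 to 0.728). Over the goblet-like class of the library labelled NFKO, the female over male ratio was 0.914 (0.803 to 1.04) for Gsta1 and 0.919 (0.844 to 1.00) for Gsta4. Within clusters the sexes differed more, as given below. Within clusters, the male-typed ratio of Gsta1 was 7.36 (4.34 to 13.4) in cluster 0 and 8.69 (5.32 to 14.8) in cluster 1, the latter against 3.93 over all cells of that cluster. For Gsta4 it was 2.27 (1.84 to 2.82) in cluster 0 and 3.33 (2.61 to 4.26) in cluster 1. In cluster 1 of the library labelled NFKO, Gsta1 was 49.0 CPM in male-typed and 19.6 CPM in female-typed NFKO cells, a female over male ratio of 0.401 (0.315 to 0.517). In cluster 0 that ratio of Gsta1 was 1.26 (1.08 to 1.48). For Gsta4 it was 1.09 (0.983 to 1.21) in cluster 0 and 0.716 (0.610 to 0.845) in cluster 1. In male-typed enteroendocrine-like cells Nqo1 had a ratio of 3.65 (2.68 to 4.95). In male-typed enterocyte-like cells, with 23 in NFKO, Gsta1 had a ratio of 3.45 (2.85 to 4.17), Gstm3 2.07 (1.51 to 2.78) and Gstp1 0.774 (0.570 to 1.03).

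**Figure D5:**
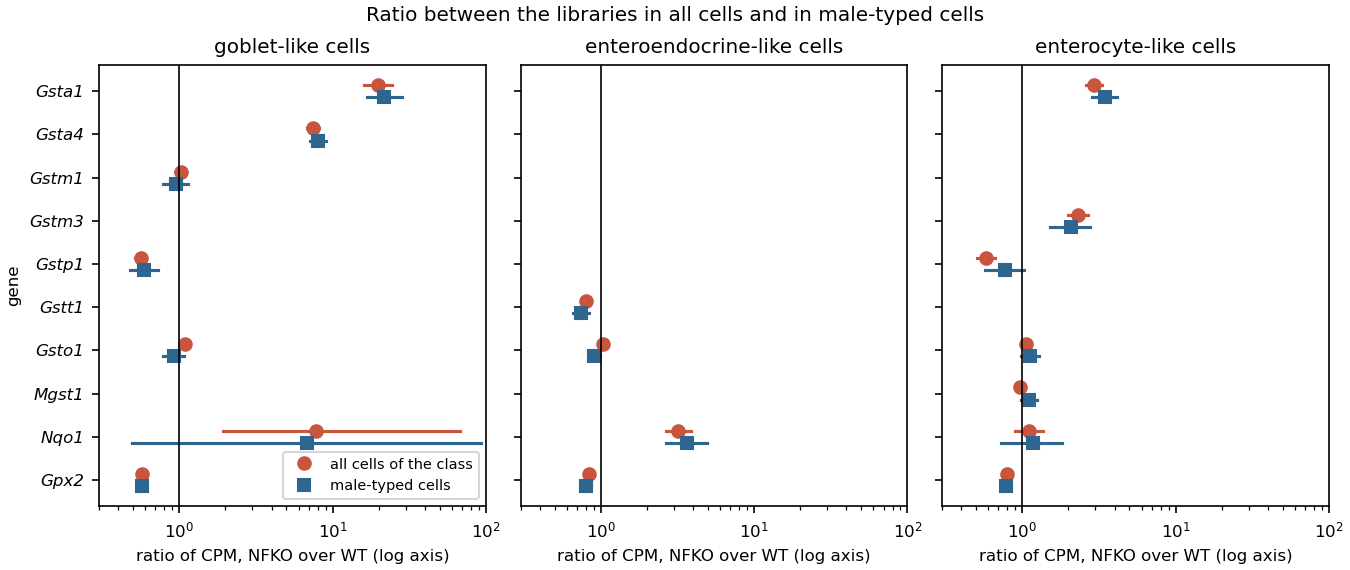
Ratio of CPM in NFKO over WT (log axis) in all cells of a class (red circles) and in cells typed male in both libraries (blue squares), with exact conditional 95% intervals, for genes that passed the filter and for Nqo1. For Gsta1 and Gsta4 in goblet-like cells the male-typed ratios of 21.7 and 8.0 lie close to the ratios over all cells.

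Reads shared with near-identical genes can be missing from the counts of some members, since Cell Ranger leaves out reads that map equally well to more than 1 gene. In the last 500 bases of the annotated transcripts, where 3′ reads fall, 90.0% of the 50-base windows of Gsta1 also occurred in another gene, mostly Gm3776 and Gsta2. For Gstp1 this share was 78.0%, with Gstp2 and a pseudogene. It was 23.0% for Gstm1, 20.2% for Gpx2 and 0.887% for Gstm3, and 0% for Gsta4, Gstt1, Gsto1, Mgst1 and Nqo1. The Gsta1 and Gstp1 levels are therefore uncertain, whereas Gsta4, next to Gsta1 on chromosome 9, shares no such window. In GRCm38, Gsta4 lies at chr9:78182774-78209349 and Gsta1 at chr9:78230656-78242684, both on the plus strand. Gstm1 and Gstm3 both lie on chromosome 3, at chr3:108012255-108017973 and chr3:107963696-107969283 on the minus strand. Unlike Gsta4 with Gsta1 they share windows, 124 of those of Gstm1 and 4 of those of Gstm3.

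Likeness of pattern was measured by Pearson's r of log2(CPM + 1) over the 23 clusters with both libraries summed, among 6268 genes. The clusters share libraries, and r is a description. Gsta1 was most like Clec2h (0.91), Stom and Lgals3, and Gsta4 was most like the goblet genes Zg16 (0.95) and Clca1 (0.94). Gstt1 was most like Fbxo9 (0.91) and the vesicular monoamine transporter gene Slc18a2 (0.85). Gsto1 was most like Ccl28 (0.88), Cth and the transcription factor gene Pdx1 (both 0.81), and Nqo1 was most like the iron exporter gene Slc40a1 (0.86). Gpx2 was most like Mecr (0.89), Mgst1 like Cd302 (0.90), Gstm1 like Ehd4 (0.91), Gstm3 like the chemokine gene Ccl25 (0.91) and Gstp1 like Serf2 (0.95). Between members, r was 0.85 for Gsta1 with Gsta4, 0.80 for Gstm1 with Gstp1 and 0.76 for Gsto1 with Nqo1.

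NRF2 acts through antioxidant response elements, whose core is TGACNNNGC. The core was searched on both strands of the RefSeq promoter windows (GRCm38.p6), which run from 250 bases before to 50 after a start. Windows existed for 9 of the 10 genes, all but Gsta4, 11 in all, and 1 of these held the core. Of all 32851 windows of 300 bases, 12.4% held it. A core outside these windows could not be found, so a window without one does not show that the gene lacks an element. The match lay in the first of the Mgst1 windows, chr6:138140277-138140576 on the plus strand, where it reads on the reverse strand and begins 56 bases before the start. The window is shown because it is the only one with a match, which is printed in capitals and is a description of these letters, not evidence of binding.
Mgst1 promoter window: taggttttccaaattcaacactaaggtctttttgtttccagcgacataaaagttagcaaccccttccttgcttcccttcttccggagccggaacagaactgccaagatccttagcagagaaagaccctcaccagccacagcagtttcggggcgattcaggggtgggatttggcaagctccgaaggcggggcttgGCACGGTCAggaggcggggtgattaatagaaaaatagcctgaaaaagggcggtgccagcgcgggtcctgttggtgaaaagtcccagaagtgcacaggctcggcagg

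Other genes of glutathione and redox metabolism were counted on lists also drawn up with earlier results known, first in goblet-like cells. Among the genes that passed the filter there, none of the 8 lists had one at least 2-fold higher or lower, against backgrounds of 2.14% and 1.05%. Of the 52 list genes under the filter, 6 were at least 2-fold higher and 3 at least 2-fold lower with counting intervals past 1. The 6 higher ones were Gstm6, Alox5ap, Ltc4s, Ggt1, Gpx3 and Ephx1. The 3 lower ones were Tiparp, Hmox1 and Akr1b8, all from the NRF2 and aryl hydrocarbon receptor list. Ephx1 is on that list too and went the other way, with a ratio of 2.69 (1.28 to 6.32) from 9 and 39 UMIs. Tiparp, an aryl hydrocarbon receptor target, had 26.6 CPM in WT and 11.2 CPM in NFKO, a ratio of 0.419 (0.365 to 0.482). Hmox1 had a ratio of 0.329 (0.223 to 0.480) and Akr1b8 one of 0.145 (0.0537 to 0.337), the latter from 30 and 7 UMIs. The share over all genes under the filter was not computed, so nothing is read from these counts. The other cytosolic transferases had 2 of 17 genes passing the filter and a median log2 ratio of -0.11, and the membrane-associated relatives of Mgst1 had 2 of 5 and 0.13. The 9 genes of glutathione synthesis and turnover had 1 passing, Slc3a2, at 0.33. The other peroxidases and reductases had 5 of 10 passing and a median of -0.17, the thioredoxin and peroxiredoxin system 10 of 12 and -0.13, the superoxide dismutases and catalase 2 of 4 and -0.34, and NADPH supply 4 of 6 and -0.03. The NRF2 and aryl hydrocarbon receptor regulators with their other targets had 2 of 17 passing, Cbr1 and Nfe2l2, the gene of NRF2 itself, with a median of 0.25.

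In enterocyte-like cells 5 genes of these lists that passed the filter were at least 2-fold higher, against the background of 6.64%. They were Ggt1, which cleaves extracellular glutathione (ratio 2.69, 2.5 to 2.91), the amino acid transporter subunit gene Slc3a2 (2.02, 1.84 to 2.21), the glutaredoxin gene Glrx (2.41, 2.22 to 2.63), the carbonyl reductase gene Cbr1 (2.28, 2.10 to 2.49) and Abcc2, which exports glutathione conjugates (2.37, 2.0 to 2.81). Glutathione synthesis and turnover gave 2 of its 4 passing genes, and the NRF2 and aryl hydrocarbon receptor list 2 of 4. The other peroxidases and reductases gave 1 of 7. The remaining lists had 1, 2, 10, 3 and 4 genes passing and 0 at least 2-fold higher. In enteroendocrine-like cells 1 of the list genes that passed was at least 2-fold higher, against the background of 0.866%. It was Gpx3, a secreted peroxidase, with 129 CPM in WT and 278 CPM in NFKO, a ratio of 2.15 (2.03 to 2.28). A further 5 list genes under the filter in that class were at least 2-fold higher and 2 at least 2-fold lower with intervals past 1. The share over all genes under the filter was not computed there either. In Paneth-like cells 0 of the genes that passed were past 2-fold in either direction.

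Lists of genes for position along the intestine and for stress also moved with the libraries. In goblet-like cells 3 of 8 distal genes passed the filter, and 1 was at least 2-fold higher, Muc3 with a ratio of 4.48 (3.93 to 5.14), while Osr2 had a ratio of 0.566 (0.516 to 0.620). Under the filter, the distal gene Fabp6 had a ratio of 0.382 (0.332 to 0.438) and the proximal gene Apoa4 one of 29.3 (17.6 to 52.6), from 15 and 707 UMIs. Of the 2 of 9 proximal genes that passed over the class, 0 were past 2-fold. Over all 2232 genes that passed in cluster 0, 2.02% were at least 2-fold higher and 4.61% lower, with a median log2 ratio of -0.11. In that cluster, which had the highest Gsta1 and Gsta4, 2 of 4 passing distal genes were at least 2-fold lower. The median log2 ratio of the 4 was -0.78, and 1 of 2 passing proximal genes, Apoa4, was at least 2-fold higher. These genes were named with their values known. In enterocyte-like cells 1 of 4 passing proximal genes, Apoa4, and 1 of 5 passing distal genes, Slc10a2, were at least 2-fold higher. Of the 11 heat shock and immediate early genes, 10 passed the filter in goblet-like, 9 in Paneth-like, 10 in enteroendocrine-like and 10 in enterocyte-like cells. Among these, 4, 3, 5 and 5 were at least 2-fold lower, against backgrounds of 1.05%, 1.16%, 0.726% and 1.72%. Hspa1a had a ratio of 0.0522 in goblet-like cells. The goblet-like clusters differed in this list. Unlike the redox lists, the position and stress lists were not kept out of the clustering, and Hspa1a was among the leading genes of cluster 2. Ratios of these genes within clusters therefore depend in part on how the clusters were formed. In cluster 0, 4 of 9 passing stress genes were at least 2-fold lower and 0 higher. In cluster 1, by contrast, 6 of 9 were at least 2-fold higher and 2 lower, with a median log2 ratio of 1.77. The summed levels of the list there were 1296 CPM in WT and 4073 CPM in NFKO. Over all genes that passed in cluster 1, 1.93% were at least 2-fold higher and 0.503% lower. Summed enterocyte markers in goblet-like cells were at 962 CPM in WT and 957 CPM in NFKO with 0 of 10 at 0, and summed immune markers at 0.420 and 0.326 CPM with 4 and 5 of 8 at 0. The part of position and stress in the ratios of the 10 genes was not tested.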

How the data were processed

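Per the labels, epithelial cells of the small intestine were profiled with 10x Genomics in 1 WT and 1 NFKO library. The authors deposited UMI counts per gene and barcode. The submitters' processing notes name Cell Ranger 5.0.1 and mm10, and other settings are not given in the sources used here. The members and gene lists were chosen with earlier results of these data known. The deposited 5051 WT and 7540 NFKO barcodes were filtered to at least 500 genes and 1000 UMIs and at most 25% mitochondrial UMIs, which removed 38.1% and 25.3%. Scrublet (scanpy 1.11.5) marked only 3 and 0 doublets with its automatic threshold, so the highest scores, 0.8% per 1000 cells, were removed instead: 126 and 340 cells. The libraries shared 4 kept barcodes. Both were clustered together without integration in Seurat 5.3.0 (R 4.3.3; 2000 variable genes without the 10 members and the genes of the 8 redox lists, 30 components, 20 neighbours, resolution 0.8, seed 42). A cluster was named for a class when at least 3 of its markers were marked (at least 2-fold higher than in other clusters and found in 10% of cells), with enough depth. A cluster that met this for cycling and for another class took the other name, as the stem-like cluster did. UMIs were summed by class and library. With 1 library per group no test was possible. Intervals are at 95% (scipy 1.17.1), and a count of 0 allows up to 3 counts. For shares, cells were thinned to 2000 UMIs, which left out shallower cells. The ratio, its interval and the call were tested on simulated counts.

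Named were the 10 members and some of the 3 genes most similar to each, over clusters of at least 20 cells and 50 CPM. Passing redox list genes past 2-fold were named in goblet-like, Paneth-like, enteroendocrine-like and enterocyte-like cells. Under the filter, such genes were named only in goblet-like cells, where the counting interval excluded equal levels. Other passing list genes were named for some lists only, and the highest and lowest of each list are not all given. Genes of the position and stress lists were named with their values known. Genes that lead a cluster are named to identify it. Coordinates are from GENCODE for GRCm38. The alternatives were 11 settings, and 3 more for goblet-like cells were chosen after seeing the data.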

Additional observations from a re-analysis of the deposited data

Results flagged for a closer look

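Gpx2 differed in direction between classes. Its ratio of NFKO over WT was 1.39 (1.19 to 1.63) in tuft-like cells, from 305 CPM in WT and 425 CPM in NFKO, and 0.569 (0.558 to 0.581) in goblet-like cells, with counting intervals on opposite sides of 1. The difference was not tested, since each group has 1 library. The tuft-like class held 86 WT and 139 NFKO cells, and its ratio ran from 1.18 to 1.73 over the alternatives, while the 3 cells with most UMIs of Gpx2 held 30.8% of them in WT.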

How the results depend on the processing

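The counts of members past 2-fold in goblet-like, Paneth-like, enteroendocrine-like and enterocyte-like cells were recomputed under 11 alternatives, and 81 of 88 recomputed counts stayed within 1.5 times. With each cell given the same weight, 2 members were at least 2-fold lower in goblet-like cells (Gpx2 at 0.463 and Gstp1 at 0.472) instead of 0, and 1 instead of 2 was higher in enterocyte-like cells (Gstm3 at 1.10). With classes from each cell's own highest marker score, 1 was higher in enterocyte-like cells (Gstm3 at 1.79). With a fold of 1.5 in place of 2, 2 were lower in goblet-like and 1 in enterocyte-like cells. With no filter on low counts, 3 were higher in enteroendocrine-like cells and 4 in Paneth-like cells. In alternatives chosen after seeing the data, cluster 0 alone had 1 member lower, Gpx2, and cluster 1 alone had 1 member higher, Gsta4, because Gsta1 did not reach 50 CPM there. Without cluster 2 the goblet-like ratios were 9.90 for Gsta1 and 3.75 for Gsta4, against 19.7 and 7.46. Of 626 recomputed ratios, 517 lay within the counting interval of the reported ratio, and 0 of the ratios that passed the filter and were past 2-fold changed direction. Of 68 ratios, 43 kept 1 direction in every alternative. Among those past 2-fold that did not pass the filter, Gsta1 in tuft-like cells ran up to 2.5, Gsta4 in cycling cells down to 0.682, and Nqo1 down to 0.777 in goblet-like and 0.589 in cycling cells. In goblet-like cells the Gsta1 ratio ran from 3.93 to 21.7, that of Gsta4 from 2.42 to 8.0, that of Gpx2 from 0.404 to 0.740 and that of Gstp1 from 0.472 to 0.642. Median-of-ratios scaling moved the Gsta1 ratio to 20.3. In Paneth-like cells Gpx2 ran from 0.665 to 1.01 and so was not lower in every alternative. All 20 shares of goblet-like cells with a UMI were higher without thinning. No paired analysis was possible because each group has 1 library. Depth limits Nqo1, Gstm3 and the alpha-class genes outside goblet-like and enterocyte-like cells, and the causes of these shifts were not tested.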
